A study of Mus musculus with 16 samples.

Results

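The nuclear genes for the subunits of respiratory complexes II to V were analysed in AML12 cells, a non-tumourigenic line of mouse hepatocytes. Members were all genes whose name on the array begins with Uqcr, Cox4 to Cox8 or Atp5, or is Sdha, Sdhb, Sdhc, Sdhd or Cyc1. These were 49 of 30214 gene names, of which 4 belong to complex II, 9 to complex III, 18 to complex IV and 18 to complex V. Of them, 46 passed the detection filter and were tested. The probes of Cox7b2, Cox8b and Cox8c, the testis isoform of subunit 7b and the muscle and testis isoforms of subunit 8, were not well above background on any of the 16 arrays. The names also bring in 4 genes that do not encode a subunit: Cox7a2l, a factor that joins complexes into supercomplexes, Atp5s, a coupling factor, Atp5sl, named after its likeness to Atp5s, and Atp5c1-ps, a pseudogene.

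The cells carried a doxycycline-inducible scramble shRNA or a doxycycline-inducible shRNA against eIF6 from a lentiviral vector. eIF6 is an initiation factor that binds the large ribosomal subunit. All cells were given doxycycline and then insulin for 1 h. The dose was 100 nM per the methods and is also given in mM in the labels. Cytoplasmic extracts, cleared by centrifugation, were separated on sucrose gradients, the light fractions were pooled as subpolysomal RNA and the heavy fractions as polysomal RNA. The 4 groups, scramble subpolysomal, scramble polysomal, eIF6 shRNA subpolysomal and eIF6 shRNA polysomal, had 4 arrays each. There was no group without insulin and no total RNA. The 16 arrays lay on 4 slides that each held 1 array of every group.

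Complex II (succinate dehydrogenase) passes electrons from succinate to ubiquinone, complex III (cytochrome bc1) from ubiquinol to cytochrome c, and complex IV (cytochrome c oxidase) from cytochrome c to oxygen. Complex V, the ATP synthase, uses the proton gradient that complexes III and IV help to build. Complex II is built from nuclear genes alone. The others join nuclear subunits, translated on cytosolic ribosomes, to a core that is encoded by mitochondrial DNA and translated inside the organelle on mitochondrial ribosomes. The extracts are described as cytoplasmic, and how much of the mitochondria they held is not given in the sources used here. mRNAs of both genomes were measured on the arrays.

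Between 20177 and 24953 probes per array were well above background. Values are log2 signals, quantile normalized over the 16 arrays, so that each value is relative to all RNA on the array. A difference between fractions is therefore a difference in share of the RNA, not in amount, and a general loss of polysomes would not show in these values. The methods state that eIF6 shRNA cells had fewer polysomes than control cells. In a bulk extract, fewer cells with an mRNA and less of it per cell cannot be told apart either. Eif6, the targeted mRNA, had a polysomal log2 signal of 12.96, 12.94, 12.96 and 12.94 in scramble cells and of 11.92, 12.00, 11.85 and 11.81 in eIF6 shRNA cells. As the mean of its 3 probes, it fell by 1.05 ± 0.079 (SE) on polysomes (limma, adjusted p = 1.45e-07). In subpolysomal RNA the change was 0.02 ± 0.079 (limma, adjusted p = 0.916). On polysomes the single probes gave -1.38 ± 0.11, -1.26 ± 0.11 and -0.52 ± 0.11. The last was dim, with mean signals of 7.67 in scramble and 7.15 in eIF6 shRNA cells. Of 10 hepatocyte markers, 7 were well above background on all 16 arrays, among them Ttr, Apob and Hnf4a. Alb was on 7 arrays, Apoa1 on 2 and Fgb on none. All 6 fibroblast markers were on all 16 arrays, and so were Pecam1 and Kdr of 3 endothelial, Cd68 and Csf1r of 4 macrophage and Krt7 and Krt19 of 3 cholangiocyte markers. Cdh5 was on none.

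The fibroblast list moved with the eIF6 shRNA. Of its 6 genes, Acta2, Col1a1, Col1a2, Col3a1 and Pdgfrb fell in both fractions, and 0 rose. The median change was -3.03 on polysomes and -1.39 in subpolysomal RNA. The log2 of their summed signal ranged from 17.31 to 18.07 on polysomes of scramble cells and from 14.73 to 15.42 in eIF6 shRNA cells. In subpolysomal RNA it ranged from 17.01 to 17.10 and from 15.87 to 16.18, so that the groups did not overlap in either fraction. Acta2 and Col1a2 were also called lower in translational efficiency. Vim changed by -0.38 and -0.04 and was not called. Of the 9 tested hepatocyte markers, 0 fell and 1 rose in each fraction, with a median of 0.15 on polysomes and 0.03 in subpolysomal RNA. Their log2 sum ranged from 18.37 to 18.97 on polysomes of scramble cells and from 18.51 to 19.00 in eIF6 shRNA cells, and in subpolysomal RNA from 18.24 to 18.36 and from 18.29 to 18.42. Of the macrophage list Csf1r fell in both fractions, and its log2 sum ranged from 8.20 to 8.42 and from 7.62 to 7.83 on polysomes. No tested endothelial or cholangiocyte marker was called between the shRNAs. The part of these markers in the changes given for the eIF6 shRNA was not tested.

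The first question was where the subunit mRNAs lay in the gradient. In scramble cells most of them had a higher signal in polysomal than in subpolysomal RNA. Of the 46 tested, 27 were called higher on polysomes and 6 lower (limma, adjusted p under 0.05 over 19365 genes). Of all genes tested, 31.7% were called higher and 28.4% lower. The median difference of the members was 0.56 against 0.04 for all genes. In eIF6 shRNA cells 29 members were called higher and 5 lower, where 32.1% and 28.7% of all genes were called, and the median was 0.64. Within the 4 slides, the median of the members in scramble cells lay between 0.49 and 0.64, and in eIF6 shRNA cells between 0.59 and 0.72.

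These counts depend on the scaling, which sets where equal signal lies. With each array scaled to its 75th percentile, the median of all genes was -0.34 in scramble cells, and 23 members were called higher and 11 lower. Of 19365 genes, 4110 were then called higher and 8481 lower. With scaling to the spike-in probes the median of all genes was 1.52, and 39 members were called higher and 0 lower. Over all genes the counts were 13410 higher and 396 lower. Relative to the median of all genes, the median of the members was higher by 0.53 as reported and by 0.72 under both of these scalings. Both shift all genes of an array by the same amount, so this difference is equal under the 2 scalings by construction. In eIF6 shRNA cells the splits were 22 higher and 10 lower with the 75th percentile and 37 higher and 0 lower with the spike-in probes. Over all genes they were 3986 higher and 8915 lower, and 11216 higher and 494 lower. The corresponding differences of the medians were 0.61 and 0.76.

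**Figure D1:**
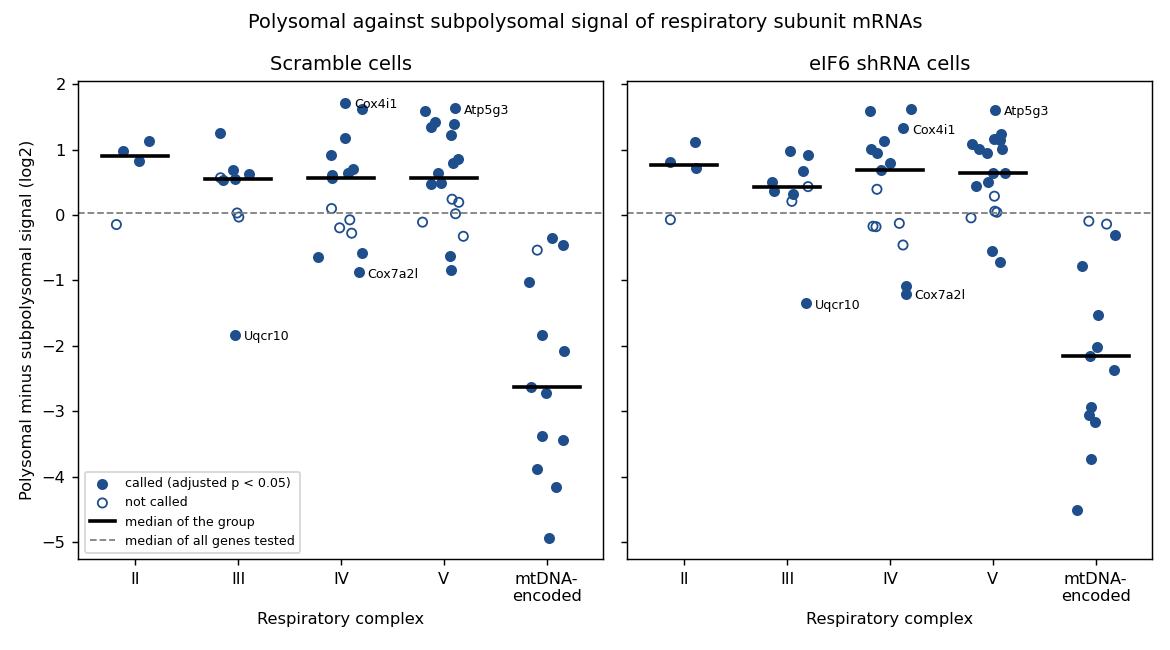
Polysomal minus subpolysomal log2 signal (vertical axis) of each tested member by complex, and of the 13 mitochondrially encoded subunits, in scramble cells (left) and eIF6 shRNA cells (right). Filled points were called at an adjusted p under 0.05, bars are medians and the dashed line is the median of all genes; the medians of complexes II to V lie between 0.43 and 0.90, and those of the mitochondrially encoded subunits at -2.63 and -2.16.

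In complex II, Sdhb (iron-sulphur subunit), Sdhc and Sdhd (membrane anchors) were called higher on polysomes. Sdhc was the highest. Its log2 signal in scramble cells was 11.54, 11.62, 11.42 and 11.37 in subpolysomal and 12.75, 12.64, 12.57 and 12.52 in polysomal RNA. The difference was 1.13 ± 0.087 (SE) in scramble cells and 1.11 ± 0.087 in eIF6 shRNA cells. Sdha, the flavoprotein that oxidises succinate, was the lowest, with a difference of -0.15 ± 0.280 (limma, adjusted p = 0.673). Its polysomal values were 11.00, 11.20, 10.97 and 12.13 in scramble cells and 11.19, 11.23, 12.04 and 12.48 in eIF6 shRNA cells, an SD of 0.54 and 0.63. Its subpolysomal values were 11.42, 11.52, 11.59 and 11.35, and 11.68, 11.78, 11.96 and 11.83.

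In complex III, 5 members were called higher on polysomes, 1 lower and 3 were not called. Cyc1, the cytochrome that hands electrons to cytochrome c, was the highest. Its signal was 14.28, 14.35, 14.35 and 14.45 in subpolysomal and 15.64, 15.45, 15.52 and 15.79 in polysomal RNA of scramble cells, a difference of 1.24 ± 0.095 or 2.37-fold. Uqcr10, a small accessory subunit, lay at the other end. Its signal was 16.14, 16.11, 16.16 and 16.24 in subpolysomal and 14.31, 14.38, 14.63 and 14.00 in polysomal RNA, a difference of -1.83 ± 0.152 or 3.56-fold (limma, adjusted p = 1.07e-07). In eIF6 shRNA cells the values were 15.78, 15.85, 15.81 and 15.94 against 14.66, 14.41, 14.85 and 14.06. The subpolysomal and polysomal values did not overlap with either shRNA.

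Uqcr10 has 3 probes, all on chromosome 11, minus strand, and all gave a negative difference in scramble cells (-2.06 ± 0.16, -1.79 ± 0.15 and -1.64 ± 0.15, SE). The probe nearest to the start of the transcript is shown because it holds the start codon, in capitals, and runs on into the coding sequence. It lies at chr11:4604252-4604311 in mm9, from position 36 of the transcript, and shares 20 bases with a probe of 1 other gene name on the array.
Uqcr10: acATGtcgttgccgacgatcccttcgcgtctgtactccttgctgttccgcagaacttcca
The other pair of probes lies at positions 373 and 380 of the transcript, so the low polysomal signal was measured at both positions.

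In complex IV, 8 members were called higher on polysomes, 3 lower and 4 were not called. The highest was Cox4i1, the common isoform of subunit 4. Its signal was 15.72, 15.74, 15.80 and 15.65 in subpolysomal and 17.44, 17.44, 17.29 and 17.59 in polysomal RNA of scramble cells, a difference of 1.71 ± 0.080 or 3.28-fold (limma, adjusted p = 2.92e-10). Cox5a, a nuclear subunit without tissue isoforms, differed by 1.62 ± 0.092. The only probe of Cox4i1 lies on chromosome 8, plus strand, at chr8:123197924-123197983 in mm9, and its sequence reads through without a stop codon from its first base.
Cox4i1: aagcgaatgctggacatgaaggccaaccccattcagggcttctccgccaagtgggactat
The 3 lower members of complex IV were Cox7a2l, Cox6b2 and Cox6c. Cox7a2l was the lowest, with 15.06, 14.97, 15.13 and 15.17 in subpolysomal and 14.22, 14.27, 14.44 and 13.88 in polysomal RNA of scramble cells, a difference of -0.88 ± 0.122 or 1.84-fold. Its 3 probes gave -1.03 ± 0.15, -0.68 ± 0.12 and -0.92 ± 0.11.

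Complex IV has pairs of isoforms that are known from liver and from other tissues, and their differences between fractions, on the log2 scale in scramble cells, are given side by side. Levels are not set against each other, because each value comes from another probe. Of subunit 4, the common Cox4i1 was called higher on polysomes, while Cox4i2, the lung isoform, differed by -0.28 ± 0.201 (limma, adjusted p = 0.249). Of subunit 6a, the liver isoform Cox6a1 was higher by 0.63 ± 0.072 and the heart and muscle isoform Cox6a2 differed by -0.07 ± 0.125. Of subunit 6b, the common isoform Cox6b1 differed by 0.10 ± 0.166 (limma, adjusted p = 0.633), and the testis isoform Cox6b2 was lower, at -0.64 ± 0.142 (limma, adjusted p = 0.00119). Of subunit 7a, the liver isoform Cox7a2 was higher by 0.61 ± 0.149 and the heart and muscle isoform Cox7a1 by 0.56 ± 0.107. Cox8a, the liver isoform of subunit 8, was higher by 0.70 ± 0.075. The muscle isoforms Cox6a2 and Cox7a1 were well above background on all 16 arrays.

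In complex V, 11 members were called higher on polysomes, 2 lower and 5 were not called. The members called higher cover the catalytic head (Atp5b, 0.80), the rotor (Atp5d, 1.22 and Atp5c1, 0.65), the stator (Atp5f1, 1.35, Atp5h, 1.39, Atp5o, 0.86 and Atp5j, 0.47) and the ring of subunit c. The others called higher were Atp5s (0.49) and the pseudogene Atp5c1-ps (1.59), and the files do not show whether the probe of the latter also takes up Atp5c1 mRNA. The value of Atp5c1 is the mean of a bright probe (0.82 ± 0.09, SE) and a dim one (0.48 ± 0.51), with mean signals of 14.41 and 5.46 in scramble subpolysomal RNA. Atp5a1, the alpha subunit of the head, differed by -0.11 and was not called. Atp5e, the epsilon subunit of the rotor, differed by -0.33 (limma, adjusted p = 0.0774). The others not called were Atp5j2 (0.19), Atp5l (0.24) and Atp5sl (0.02). Atp5k, the small subunit e of the membrane part, was lower. Its signal was 15.26, 15.32, 15.31 and 15.41 in subpolysomal and 14.58, 14.47, 14.68 and 14.22 in polysomal RNA of scramble cells, a difference of -0.84 ± 0.120 (limma, adjusted p = 2.71e-05). Its 3 probes gave -0.79, -0.81 and -0.92, although the files place 2 of them on chromosome Y and 1 on chromosome 5.

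Subunit c of the ring is encoded by 3 genes that yield the same mature protein. Atp5g2 was higher on polysomes by 1.43 ± 0.074 and Atp5g3 by 1.63 ± 0.114. The signal of Atp5g3 was 13.95, 14.10, 14.04 and 14.18 in subpolysomal and 15.60, 15.80, 15.97 and 15.41 in polysomal RNA of scramble cells. Atp5g1, as the mean of its 2 probes, was called lower, by -0.62 ± 0.124 (limma, adjusted p = 5.33e-04). The 2 probes disagreed. The probe at position 537 of the RefSeq transcript, at chr11:95934315-95934374 of mm9 on the minus strand, was higher on polysomes by 1.00 ± 0.09. The probe at position 4504 of an Ensembl transcript, at chr11:95930317-95930376, was lower by -2.24 ± 0.18. The first 30 bases of each are shown because the call for Atp5g1 turns on them.
Atp5g1, position 537: tgccagtcctggtgctggagtctactgagc
Atp5g1, position 4504: tttcaattattaaaagctttaagggctggc
The brighter of the 2, at position 537, shares 20 bases with 8 probes of other names. With the brighter probe alone Atp5g1 was called higher on polysomes. The counts given here hold Atp5g1 as lower, and its changes with eIF6 shRNA are given probe by probe.

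**Figure D2:**
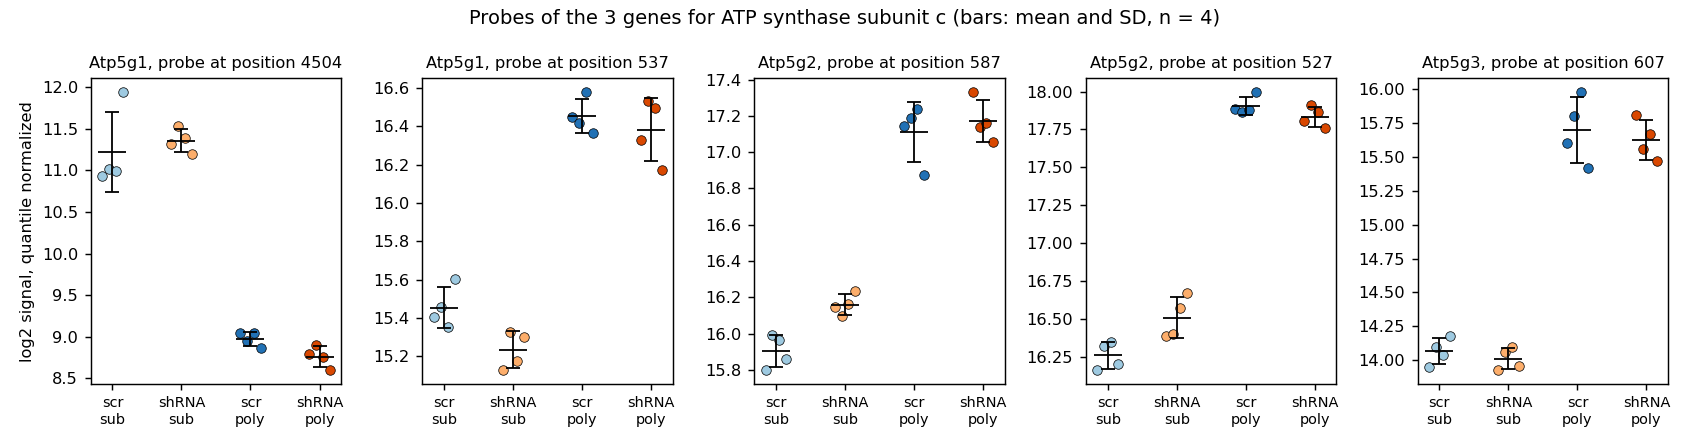
Log2 signal (vertical axis, quantile normalized) of the 5 probes for the genes of ATP synthase subunit c on each of the 16 arrays, by group (scr, scramble; shRNA, eIF6 shRNA; sub, subpolysomal; poly, polysomal), with mean and SD of 4 arrays. The vertical axes differ; 4 probes are higher in polysomal RNA, and the Atp5g1 probe at position 4504 is higher in subpolysomal RNA.

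The mRNAs for the mitochondrially encoded core of the same complexes are no members and were taken as a list. All 6 that belong to complexes III to V, each with 1 probe, were called lower on polysomes in scramble cells. COX1, the catalytic subunit of complex IV, differed by -0.35 ± 0.077, COX2 by -0.46 ± 0.071 and COX3 by -1.84 ± 0.140. CYTB, the core of complex III, differed by -1.02 ± 0.090. ATP6 and ATP8, the membrane subunits of complex V, differed by -3.37 ± 0.158 and -4.16 ± 0.191. ATP6 read 17.47, 17.36, 17.39 and 17.56 in subpolysomal and 13.70, 13.84, 14.58 and 14.17 in polysomal RNA. Of all 13 such mRNAs, 12 were called lower and 0 higher, with a median of -2.63 and within-slide medians between -2.79 and -2.40. With scaling to the spike-in probes the median was -0.97 and 6 were called lower. The files place the probes of COX2, COX3, ATP6 and ATP8 on chromosome 1 of mm9, where mm9 has a nuclear copy of mitochondrial sequence, and RNA from the copy cannot be told apart from mitochondrial RNA by these probes.

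The nuclear subunits of complex I, which takes electrons from NADH, were set beside the members as a list. Of 38 tested, 29 were called higher on polysomes in scramble cells and 3 lower, with a median of 0.80. Of 26 assembly factors of complexes II to V, 9 (34.6%) were called higher and 8 (30.8%) lower, with a median of 0.03. Of all genes, 31.7% were called higher and 28.4% lower. Among 8 carriers and partners, which include cytochrome c (Cycs) and the adenine nucleotide carriers, 5 were called higher and 1 lower, with a median of 0.79.

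The second question was what the eIF6 shRNA changed. On polysomes few members changed. Uqcrfs1, Atp5sl and Cox7a2l rose and Cox6a2 fell, that is 3 of 46 were called higher and 1 lower. Of all genes, 11.1% were called higher and 10.7% lower. The median of the members was 0.11 and that of all genes 0.02. Subpolysomal RNA held more changes, with 9 members called higher and 3 lower, where 11.8% of all genes were called higher and 12.3% lower. The median of the members was 0.06 against 0.02 for all genes. The members called higher were Cox7a2l, Uqcrfs1, Atp5d, Atp5sl, Cox6b2, Cox4i1, Atp5h, Atp5g2 and Sdhb, and those called lower were Cox6a2, Cox6a1 and Atp5j. Without replicate 1, 2 or 3 of every group, the subpolysomal counts were 3, 3 and 4 higher and 0 lower, and without replicate 4 they were 7 higher and 6 lower. Over all genes these counts were 1220, 1328, 1359 and 3047 higher and 1404, 1449, 1545 and 3107 lower. With all arrays they were 2293 and 2390. The polysomal count of higher members was 0 without replicate 1 or 2 and 5 without replicate 4. Over all genes it was 1307, 1297 and 2625, and 2147 with all arrays. Fibroblast markers fell in the same comparisons, as given above. With scaling to the spike-in probes no member was called in either fraction, and the median of all genes was then -0.47 on polysomes and -0.23 in subpolysomal RNA. Of 19365 genes, 101 were then called higher and 1056 lower on polysomes, and 43 higher and 345 lower in subpolysomal RNA.

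**Figure D3:**
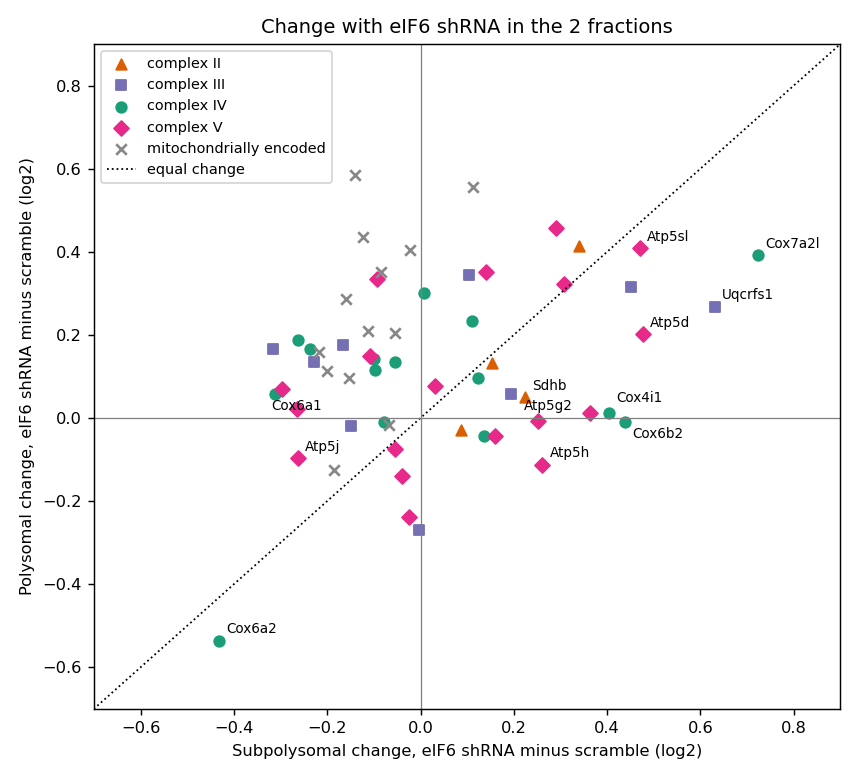
Subpolysomal change (horizontal axis) against polysomal change (vertical axis), both eIF6 shRNA minus scramble in log2, of the 46 tested members by complex and of the 13 mitochondrially encoded mRNAs. Members called in either fraction are named, and points on the dotted line changed equally; Cox7a2l (0.72) and Uqcrfs1 (0.63) lie farthest to the right and Cox6a2 (-0.43) farthest to the left.

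In complex II all 4 members had a subpolysomal change above 0, from 0.09 to 0.34, and only Sdhb was called. The subpolysomal signal of Sdhb was 12.78, 12.93, 12.95 and 12.93 in scramble cells and 13.15, 13.03, 13.17 and 13.13 in eIF6 shRNA cells, a change of 0.22 ± 0.075 (limma, adjusted p = 0.0425). The groups did not overlap, and the 2 probes gave 0.34 and 0.11. The call was lost with the brighter of its probes, with no detection filter, with the replicate block and when any of the 4 replicates was left out. On polysomes Sdhb read 13.87, 13.90, 13.90 and 13.84 against 14.03, 13.98, 13.75 and 13.95, a change of 0.05 ± 0.075.

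In complex III only Uqcrfs1 was called. Uqcrfs1 is the Rieske iron-sulphur protein, which takes electrons from ubiquinol. Its subpolysomal signal was 12.07, 12.12, 12.02 and 11.98 in scramble cells and 12.69, 12.65, 12.74 and 12.62 in eIF6 shRNA cells. It rose by 0.63 ± 0.076 or 1.55-fold (limma, adjusted p = 2.58e-05), and was higher on 4 of 4 slides, by 0.55 to 0.73. On polysomes it read 12.77, 12.79, 12.76 and 12.61 against 13.04, 13.01, 12.84 and 13.12, a rise of 0.27 ± 0.076 (limma, adjusted p = 0.0200). In both fractions the groups did not overlap. The polysomal call was lost without replicate 1, 2 or 4. The other members of complex III ranged from -0.32 (Uqcr10) to 0.45 (Uqcrc2, a core protein) in subpolysomal RNA. Cyc1 had the lowest polysomal change, -0.27 ± 0.095 (limma, adjusted p = 0.058). It was lower on 4 of 4 slides and was called with the slide as a block (limma, adjusted p = 0.0345), with normexp background correction, with the stricter filter and without replicate 2.

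In complex IV, Cox7a2l rose in both fractions. Its subpolysomal signal was 15.06, 14.97, 15.13 and 15.17 in scramble cells and 15.81, 15.83, 15.80 and 15.76 in eIF6 shRNA cells, a change of 0.72 ± 0.122 or 1.65-fold (limma, adjusted p = 5.50e-04). On polysomes it read 14.22, 14.27, 14.44 and 13.88 against 14.75, 14.59, 14.77 and 14.27, a change of 0.39 ± 0.122 (limma, adjusted p = 0.0324), and here the groups overlapped. The polysomal call was lost without replicate 1, 2 or 3, with scaling to the 75th percentile and with no detection filter. The 3 probes gave subpolysomal changes of 0.97, 0.60 and 0.60.

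Cox4i1 rose in subpolysomal RNA, from 15.72, 15.74, 15.80 and 15.65 to 16.12, 16.08, 16.16 and 16.15. The change was 0.40 ± 0.080 (limma, adjusted p = 0.00179), and was between 0.36 and 0.43 on the 4 slides. Its polysomal change was 0.01 ± 0.080. Cox6a1 moved the other way. Its subpolysomal signal was 17.45, 17.54, 17.47 and 17.46 in scramble cells and 17.05, 17.15, 17.18 and 17.30 in eIF6 shRNA cells, and it fell by 0.31 ± 0.072 (limma, adjusted p = 0.00521), while its polysomal change was 0.06 ± 0.072. The call was lost without replicate 1, 2 or 3 and with scaling to the 75th percentile.

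The heart and muscle isoform of the same subunit, Cox6a2, fell in both fractions. Its subpolysomal signal was 9.83, 9.76, 9.75 and 9.65 against 9.26, 9.34, 9.28 and 9.39, and it fell by 0.43 ± 0.125 (limma, adjusted p = 0.0207). On polysomes it was 9.78, 9.75, 9.72 and 9.44 against 9.34, 9.21, 9.30 and 8.70, and it fell by 0.54 ± 0.125 (limma, adjusted p = 0.00562). The groups did not overlap in either fraction. The polysomal call was lost without replicate 2, and the subpolysomal call without replicate 1, 2 or 3. Cox6b2, the testis isoform of subunit 6b, rose in subpolysomal RNA by 0.44 ± 0.142 (limma, adjusted p = 0.0354), from 7.15, 7.22, 6.90 and 6.99 to 7.76, 7.73, 7.24 and 7.28. That call was lost without replicate 1, 2 or 3, with scaling to the 75th percentile and with no detection filter. The changes of Cox4i2, Cox6b1, Cox7a1, Cox7a2 and Cox8a were not called in either fraction and lay between -0.10 and 0.30.

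**Figure D4:**
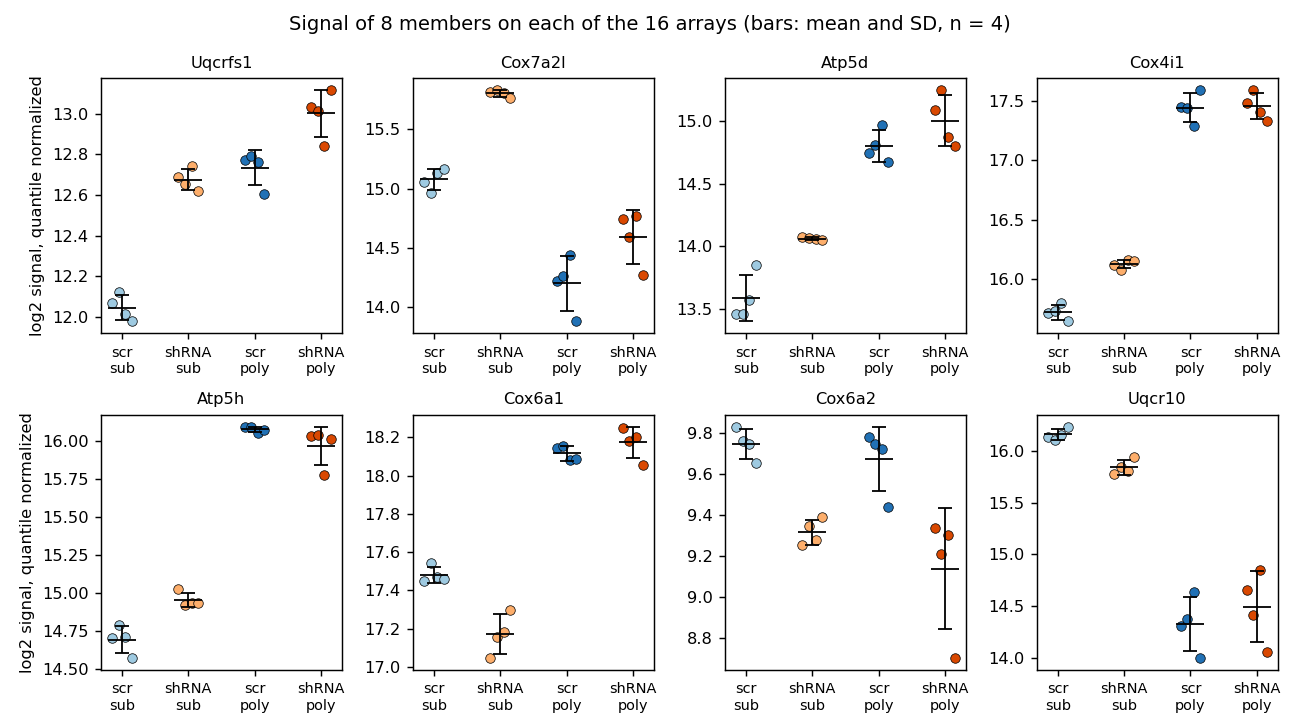
Log2 signal (vertical axis, quantile normalized) of 8 members on each of the 16 arrays by group (scr, scramble; shRNA, eIF6 shRNA; sub, subpolysomal; poly, polysomal), with mean and SD of 4 arrays. The vertical axes differ; Uqcrfs1, Cox7a2l, Atp5d, Cox4i1 and Atp5h are higher and Cox6a1 and Cox6a2 lower in subpolysomal RNA of eIF6 shRNA cells, and Uqcr10 and Cox7a2l have their higher signal in subpolysomal RNA.

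In complex V, Atp5d, Atp5sl, Atp5h and Atp5g2 rose and Atp5j fell in subpolysomal RNA. Atp5d, the delta subunit of the rotor, read 13.46, 13.46, 13.57 and 13.85 in scramble cells and 14.07, 14.07, 14.06 and 14.05 in eIF6 shRNA cells, a change of 0.48 ± 0.112 (limma, adjusted p = 0.00604). The call was lost without replicate 1 or 2. Atp5h, the stator subunit d, read 14.70, 14.79, 14.71 and 14.57 against 15.03, 14.92, 14.93 and 14.93, a change of 0.26 ± 0.076 (limma, adjusted p = 0.0209), which was lost with the brighter of its 2 probes and when any of the 4 replicates was left out. Atp5g2 read 15.98, 16.16, 16.16 and 16.03 against 16.27, 16.25, 16.37 and 16.46, a change of 0.25 ± 0.074 (limma, adjusted p = 0.0220), and its call was lost when any of the 4 replicates was left out. Its sister genes changed by -0.05 ± 0.114 (Atp5g3) and by -0.22 and 0.14 at the 2 probes of Atp5g1. Atp5j, the stator subunit F6, read 13.07, 13.14, 12.98 and 13.14 against 12.76, 12.79, 12.88 and 12.85, a change of -0.26 ± 0.090 (limma, adjusted p = 0.0469). With the slide as a block its adjusted p was 0.0526, and the call was also lost with the replicate block, with scaling to the 75th percentile and without replicate 1, 2 or 3. Atp5sl rose by 0.47 ± 0.128 in subpolysomal and by 0.41 ± 0.128 in polysomal RNA, and both calls were lost without replicate 1 or 2, the subpolysomal one also without replicate 3 and the polysomal one with no detection filter.

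Translational efficiency is the polysomal over the subpolysomal signal, so its change on the log2 scale is the difference of the changes in the 2 fractions. No member was called in it by limma, in either direction, where 1.11% of all genes were called lower and 0.403% higher. At an unadjusted p under 0.05 there were 9 of 46 members and 12.5% of all genes. The values ran from -0.45 (Cox6b2) to 0.48 (Uqcr10), with a median of 0.03 against 0.02 for all genes. By complex the medians were -0.07 (II), 0.13 (III), 0.12 (IV) and -0.003 (V). The lowest adjusted p values were those of Cox6a1 (0.37 ± 0.101, limma, adjusted p = 0.100), Cox4i1 (-0.39 ± 0.112, adjusted p = 0.118) and Atp5h (-0.37 ± 0.107, adjusted p = 0.118). With scaling to the 75th percentile or normexp background correction 1 member, Cox4i1, was called lower, and without replicate 4 of every group 1 member, Cox6a1, was called higher. Over all 19365 genes, 408 and 390 were called lower under the first 2 settings, and 114 higher without replicate 4.

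A two-sided exact permutation test of the 4 + 4 log2 ratios of polysomal to subpolysomal signal, formed within the replicate number, gave its smallest possible p, 0.0286, for 5 members, whose ratios did not overlap between the shRNAs. Atp5g2, Atp5h and Uqcrfs1 had the lower ratios in eIF6 shRNA cells, and Cox6a1 and Cox7b, a nuclear subunit of complex IV, the higher ones. This is 10.9% of the members and compares with 7.96% of all genes. The labels do not say whether the replicate numbers pair the arrays. With ratios formed within the slide, a choice made after seeing the data, 10 members or 21.7% reached this p, where 10.2% of all genes did. Atp5h, Cox6a1, Cox7b and Uqcrfs1 did so both ways, and Atp5g2 only by number. Within the slide, the others were Cox4i1 and Cox6b2, with lower ratios in eIF6 shRNA cells, and Atp5j, Cox6c, Cox8a and Uqcr11, with higher ones. The number of arrays limits what could be resolved: the SE of a change in translational efficiency had a median of 0.217 over all genes.

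Of the 9 members called higher in subpolysomal RNA, 6 were not called on polysomes. The first transcribed bases of the members were read, because mRNAs that start with a C and a run of pyrimidines (terminal oligopyrimidine, or TOP, mRNAs, best known from ribosomal proteins) are a class that growth signals regulate in translation. Of 49 members, 37 had a RefSeq promoter (GRCm38.p6), with 41 starts. A C followed by at least 4 pyrimidines, read on the coding strand only, stood at 3 of the 41 starts, or 7.32%, and at 2.51% of all 32851 starts in the table. The 3 genes are shown with 15 bases before and 15 bases from the start, and the run of pyrimidines is in capitals. Atp5d lies at chr10:80142300-80142329, plus strand, and this is 1 of its 2 listed starts. Atp5g2 lies at chr15:102671033-102671062 and Uqcrfs1 at chr13:30545302-30545331, both on the minus strand.
Atp5d: tactgcatcgcgcagCCTTCggagaatcct
Atp5g2: ttcccgcgcccccgcCCCTCTCTgtcttct
Uqcrfs1: ctgcgcctcccgctcCTCTTCgggccgtcg
All 3 were among the members called higher in subpolysomal RNA of eIF6 shRNA cells, and 5 of the 32 tested members with another listed start were. Over all genes tested the share called higher was 15.3% of 365 with such a start and 11.3% of 11790 without. Without the ribosomal protein genes it was 14.2% of 352 and 11.2% of 11744. Of the ribosomal protein genes themselves, 6 of 13 with such a start were called higher, or 46.2%, and 17 of 46 without, or 37.0%. Listed starts are those of RefSeq and were not measured in AML12 cells. Of 59 ribosomal protein genes with a listed start only 13 met the rule, so another listed start does not place an mRNA outside the class. The reading of starts was not among the planned tests, and a class of 3 members allows no conclusion.

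Other genes of the pathway were taken as lists. Of the 38 nuclear subunits of complex I, 7 (18.4%) were called higher and 3 (7.89%) lower in subpolysomal RNA, and 2 (5.26%) higher and 2 lower on polysomes. Of all genes, 11.8% were called higher and 12.3% lower in subpolysomal RNA, and 11.1% and 10.7% on polysomes. Of the 26 assembly factors, Bcs1l, which inserts the Rieske protein into complex III, rose in subpolysomal RNA by 0.59 (limma, adjusted p = 5.50e-04). Surf1, an assembly factor of complex IV, rose there by 0.43, Sco2, which brings copper to complex IV, by 0.35, while Cox16 fell by 0.42 and Cox18 by 0.47. On polysomes Sdhaf1, Cox15, Cox19, Coa3 and Surf1 rose, by 0.23 to 0.38. Cycs, the electron carrier between complexes III and IV, fell in both fractions, by 0.32 on polysomes and by 0.39 in subpolysomal RNA. Slc25a3, the phosphate carrier, rose in both, by 0.27 and 0.43. No gene of these lists was called in translational efficiency. Of the 13 mitochondrially encoded mRNAs, 4 were called higher on polysomes and 0 in subpolysomal RNA. Among those of complexes III to V this was COX2, which read 17.28, 17.25, 17.45 and 17.35 in scramble cells and 17.58, 17.48, 17.51 and 17.62 in eIF6 shRNA cells.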

How the data were processed

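RNA of 16 gradient pools was hybridized on one-colour Agilent mouse arrays. The authors deposited the scanner output (Feature Extraction, version 10.7.7.1 in the submitters' processing notes and 10.7.3.1 in the file headers) with a background-corrected intensity per spot, and a table of log2 values that they had quantile normalized. Coordinates are those of the files (mm9). Members, lists and tests were chosen with earlier results of these data known.

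Outlier spots were left out. Probes passed the filter (25260 of 39429) if 1 group had at least 2 arrays where they were well above background. Log2 intensities were quantile normalized, and a gene was the mean of its kept probes. limma 3.58.1 in R 4.3.3 was fitted with 4 group means, with Benjamini-Hochberg adjustment over 19365 genes and a threshold of 0.05. The fit took the 16 arrays as independent. In the methods the 2 pools are fractions of a gradient, so a polysomal and a subpolysomal array may share a culture. No fit had the culture as a block, and the replicate block joined same-numbered arrays of both shRNAs. Named members were, per complex, up to 3 called members with the largest change and the lowest and highest polysomal minus subpolysomal difference, among those above background on all arrays, the genes of subunit c and the isoforms of complex IV. Other members and list genes named outside this rule were chosen after their values were seen. Of 73 kept probes, 16 share 20 bases with a probe of another name. The methods name 4 biological replicates. The procedure was tested on simulated data. Alternatives were 75th percentile and spike-in (7 probes) scaling, normexp (offset 50), other filters, the brightest probe, the log2 table, replicate and slide blocks, ratios within the slide, and leaving out each replicate. Figures used matplotlib 3.10.9.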

Additional observations from a re-analysis of the deposited data

Results flagged for a closer look

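Among 188 groups of 4 arrays (Eif6 and the 46 tested members), 11 held an array whose gap to the others exceeded Dixon's critical value, and chance flags about 1 in 20. In scramble subpolysomal RNA, Atp5g1 as the mean of its 2 probes (13.77, others 13.16 to 13.24) and Cox6b1 (13.63, others 13.13 to 13.18) were high on the array of replicate 4. There the Atp5g1 probe at position 4504 read 11.94 (others 10.93 to 11.01). The probe at position 537 read 15.60 (others 15.35 to 15.46). In the same group Cox7a1 was low at 9.19 on that array (others 9.24 to 9.25), and Sdhb was low at 12.78 on the array of replicate 1 (others 12.93 to 12.95). In scramble polysomal RNA, Uqcrfs1 was low at 12.61 (others 12.76 to 12.79) and Atp5b high at 15.97 (others 15.51 to 15.57) on the array of replicate 4. In eIF6 shRNA cells, Atp5h was high at 15.03 in subpolysomal RNA of replicate 1 (others 14.92 to 14.93) and low at 15.78 in polysomal RNA of replicate 3 (others 16.01 to 16.04). Also on that polysomal array Atp5f1 was low at 12.09 (others 12.39 to 12.44). Atp5o was low at 9.66 in subpolysomal RNA of replicate 4 (others 10.13 to 10.21), and Atp5s was high at 6.87 in polysomal RNA of replicate 1 (others 6.40 to 6.42). Without replicate 1 the subpolysomal call of Sdhb was lost, and without replicate 4 the polysomal call of Uqcrfs1.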

How the results depend on the processing

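With scaling to the spike-in probes, the members called were 0 lower and 0 higher on polysomes, 0 lower and 0 higher in subpolysomal RNA, and 0 lower between the fractions with either shRNA, and Eif6 changed by -1.36 on polysomes and by -1.14 in translational efficiency without passing the threshold. The polysomal changes of Atp5sl (-0.021), Cox7a2l (-0.12) and Uqcrfs1 (-0.19) and the subpolysomal change of Sdhb (-0.0037) turned direction under this scaling, uncalled. Polysomal counts were 2 lower and 5 higher with normexp, 2 lower with the stricter filter, 2 lower with the slide block and 1 higher with no filter. Over all genes they were 2136 lower and 2252 higher with normexp and 2124 lower with the stricter filter. They were 2209 lower with the slide block and 1730 higher with no filter. With scaling to the 75th percentile 1 member was lower in subpolysomal RNA, 1 lower in translational efficiency, and 11 and 10 lower between the fractions in scramble and eIF6 shRNA cells. Over all genes these counts were 1983, 408, 8481 and 8915. Normexp called 1 member and 390 of all genes lower in translational efficiency. The cause of these shifts was not tested.

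Leaving out a replicate of every group leaves fewer arrays. It gave 1 lower and 0 to 5 higher members on polysomes, 0 to 6 lower and 3 to 7 higher in subpolysomal RNA, and 0 lower and 0 to 1 higher in translational efficiency. Between the fractions it gave 6 lower and 25 to 29 higher in scramble cells and 5 to 6 lower and 26 to 33 higher in eIF6 shRNA cells. Over all genes the latter counts were 4711 to 5670 lower and 5181 to 6208 higher in scramble cells. In eIF6 shRNA cells they were 4663 to 5753 lower and 5241 to 6414 higher. The counts over all genes between the shRNAs moved as well, as given above for each fraction. In translational efficiency they were 54 to 181 lower and 20 to 114 higher. The labels do not say whether arrays with the same replicate number come from 1 culture. The deviations of same-numbered arrays from their group means correlated by -0.21 to 0.41 (24 pairs, median -0.01), and those of other pairs by -0.34 to 0.25. These correlations cannot settle the pairing, because most same-numbered arrays lay on different slides. Arrays of the same slide correlated by a median of 0.13 and arrays of other slides by -0.04. With the replicate block the counts were 1 lower and 3 higher on polysomes and 2 lower and 8 higher in subpolysomal RNA. Over all genes they were 2003 lower and 2087 higher, and 2310 lower and 2258 higher. The 138 single changes of tested members gave 1794 values under the alternatives. Of 208 values of called changes, 204 kept their sign and 141 their sign and call. Of 1586 values of changes that were not called, 1567 stayed uncalled and 119 turned sign. Protein length was not run, because no protein sequences were given. Signal over background limits Cox4i2, Atp5s and Cox6b2, the dimmest tested members. It also limits Cox7c, the mean of 3 probes with mean signals of 14.83, 7.98 and 3.08 in scramble subpolysomal RNA. The dimmest of these probes was well above background on 3 of 16 arrays. The subpolysomal change of Cox7c was called with the stricter filter only.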

Other observations

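The position of the probe on its transcript was looked at in place of protein length, after the data had been seen. For RefSeq transcripts, the last base reached by a kept probe of a gene is a lower bound on the length of its mRNA. Over 45 members its log10 correlated with the subpolysomal change after eIF6 shRNA (Pearson r = 0.52, Spearman rho = 0.61). Over 14327 genes the same correlation was r = -0.08 and rho = -0.11. With the change in translational efficiency the members gave r = -0.30 and rho = -0.44, and all genes r = 0.11 and rho = 0.18. These are correlations across genes of the same 16 arrays, which are not independent replicates, and they are given as a description. The subpolysomal value stayed between 0.42 and 0.56 under the alternatives that were run. The 5 members with the lowest bound were Cox6b1, Cox7a1, Atp5k, Atp5e and Uqcrb, with subpolysomal changes of 0.01, 0.11, -0.26, -0.30 and -0.15. The 5 with the highest were Atp5a1, Atp5sl, Sdha, Atp5c1 and Atp5b, with 0.29, 0.47, 0.34, -0.09 and 0.14. The value of Atp5c1 is the mean of a bright probe (0.22 ± 0.09, SE) and a dim one (-0.41 ± 0.51).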
